A study of Mus musculus with 8 samples.

Results

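The ligands of the chemokine receptor CXCR3, the cytokine that induces them and a peptidase that trims them were measured in lysates of mouse tumours, as 5 of the 111 analytes on an antibody array. They were taken from the array by Entrez Gene ID: CXCL9/MIG (Cxcl9, 17329), CXCL10/IP-10 (Cxcl10, 15945), CXCL11/I-TAC (Cxcl11, 56066), IFN-γ (Ifng, 15978) and DPPIV/CD26 (Dpp4, 13482). All 5 were found, and each was read as the mean of its 2 spots on every one of the 8 membranes.

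The tumours grew under the skin of the thigh of female C57BL mice aged 10 weeks. They came from 300000 cells of TC-1/IR, a radiation-resistant line, or from 100000 cells of its parent TC-1, and both lines express the HPV16 oncoproteins E6 and E7. Treatment started 8 to 10 days after the cells were given, at about 100 mm3. It was radiotherapy together with rhIL-7-hyFc, a recombinant human interleukin-7 joined to an Fc part (RT+IL-7), radiotherapy alone (RT), the cytokine alone (IL-7) or buffer. Radiotherapy was gamma irradiation of the whole body at 2 Gy a day for 4 days, and the cytokine was injected under the skin at 50 µg on days 0 and 7. The irradiation therefore also reached the blood cells and lymphoid organs of the host. Each of the 8 groups, 2 lines by 4 treatments, had 1 membrane. Titles describe the lysates as pooled while the design text describes tumours of individual mice, and how many animals each membrane stands for is not known. Cell dose differed between the lines in every comparison and cannot be told apart from the line.

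CXCL9, CXCL10 and CXCL11 bind CXCR3, a receptor of activated T cells and NK cells, and draw these cells into inflamed tissue and tumours. IFN-γ, made by the same T and NK cells, induces all 3 ligands. CXCL9 depends most closely on IFN-γ, whereas CXCL10 is also induced by type I interferons and by NF-κB. DPPIV, a peptidase on lymphocytes and epithelia that also circulates in plasma, clips the amino-terminal end of CXCR3 ligands, which for the human proteins lowers their attraction for T cells. The C57BL/6 strain is known to carry a frameshift in Cxcl11 that stops synthesis of the full chemokine, and the labels give the strain of these mice as C57BL.

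Summed signal ran from 739 to 1495 intensity units on the TC-1/IR membranes and from 1173 to 1449 on the TC-1 membranes. A floor was set at 2.49 intensity units, which is 1% of the strongest analyte. On the TC-1/IR membranes 36 to 64 analytes lay above it, against 68 to 91 on the TC-1 membranes. Spots without signal, deposited as placeholders of about 0.001, numbered 98 on the TC-1/IR membranes and 5 on the TC-1 membranes. Values below the floor were set to it for ratios and tests, so a fold against such a value is given as "at least". Differences over all membranes are log2 differences from limma with terms for line, RT and IL-7, on the 75 analytes that exceeded the floor on 4 membranes or more, with p-values adjusted by Benjamini-Hochberg over the 75 and a call at an adjusted p under 0.05. All 5 proteins passed this filter, IFN-γ through its 4 TC-1 membranes alone. Between 2 single membranes there is no test. A difference was called there when it reached 1.5-fold, at least 1 membrane was above the floor and the duplicate spots did not overlap, and standard errors of such ratios come from duplicate spots and cover technical error alone.

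The reference sequence before 2 of the ligand genes, Cxcl9 and Cxcl10, is shown as background. Both genes lie on the same chromosome, and the RefSeq table (GRCm38.p6) gave the 250 bases before the start of 4 of the 5 genes, with no entry for Cxcl11. Capitals mark matches, on either strand, to the interferon-stimulated response element (GAAA, 2 bases of any kind, GAAA), the gamma-activated site TTCNNNGAA or the NF-κB consensus. Over 27025 promoters of the same length, 3.04% held the first, 7.18% the second and 7.01% the third.
Cxcl10, chr5:92348890-92349139, minus strand: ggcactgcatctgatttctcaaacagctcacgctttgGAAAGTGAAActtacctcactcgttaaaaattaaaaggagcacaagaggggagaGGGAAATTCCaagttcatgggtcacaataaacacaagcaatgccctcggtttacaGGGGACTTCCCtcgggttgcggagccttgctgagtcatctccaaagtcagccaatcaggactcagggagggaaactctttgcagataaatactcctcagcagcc
Cxcl9, chr5:92328080-92328329, minus strand: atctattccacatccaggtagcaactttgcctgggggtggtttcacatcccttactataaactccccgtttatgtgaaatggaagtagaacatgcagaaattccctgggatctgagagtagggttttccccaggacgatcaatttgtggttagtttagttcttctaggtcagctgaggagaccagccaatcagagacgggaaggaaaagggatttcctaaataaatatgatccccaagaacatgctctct
The Cxcl10 stretch held 1 match to the interferon-stimulated response element, 213 to 204 bases before the start, and 3 matches to the NF-κB consensus, of which 2 overlap. The stretch before Dpp4 also held 1 match to the interferon-stimulated response element, 52 to 43 bases before the start, and that before Ifng held 1 gamma-activated site, 249 to 241 bases before it. The Cxcl9 stretch held 0 matches to any of the 3, which says no more than that these letters are not in this window. The array measured protein, so these matches are a description of the genes and were not tested against the values.

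**Figure D1:**
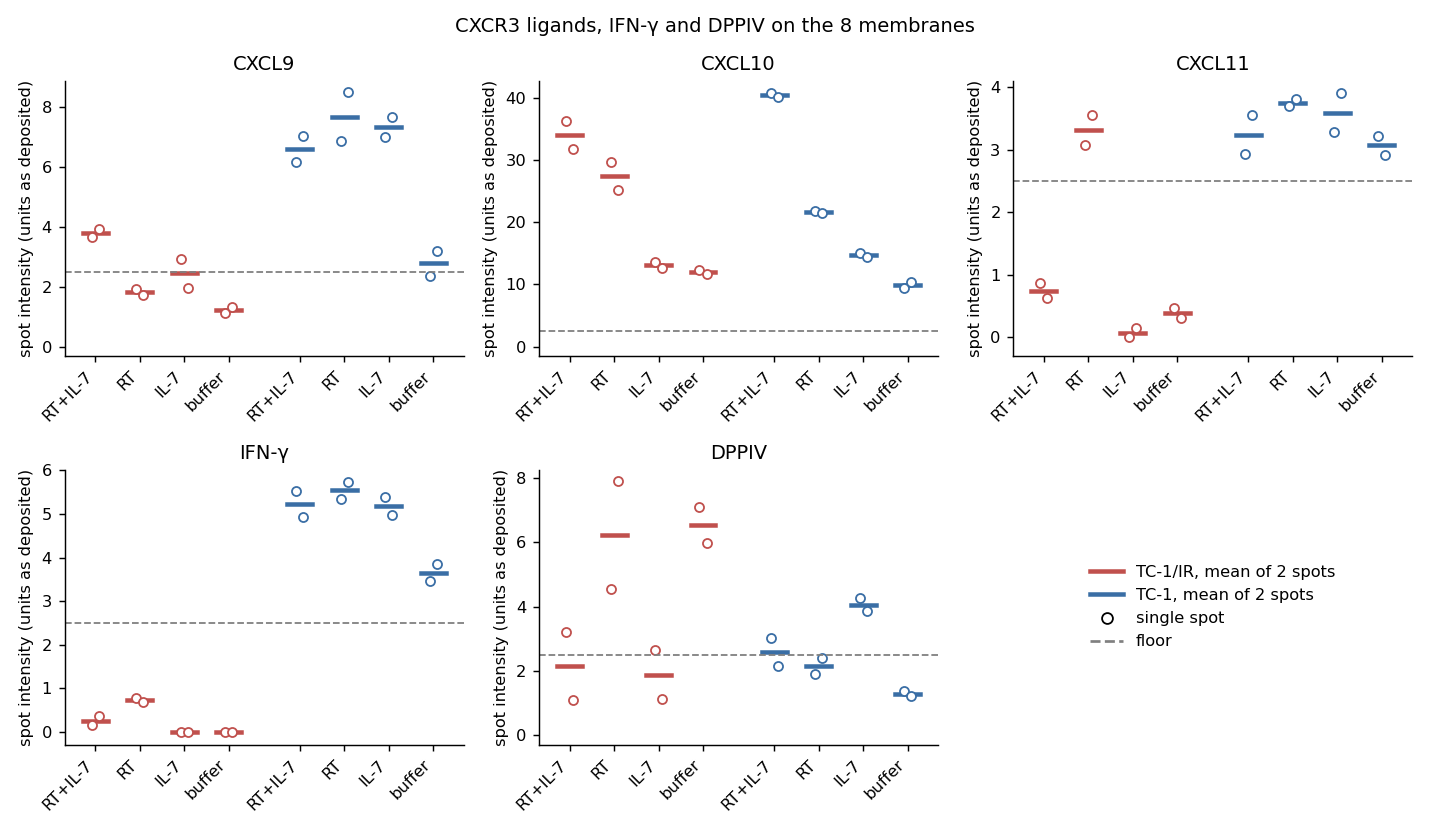
Spot intensity (linear scale, units as deposited) of the 5 proteins on each membrane, with TC-1/IR in red, TC-1 in blue, bars for the mean of 2 spots, open circles for the spots and a dashed line for the floor of 2.49. CXCL10 separates the irradiated membranes (21.7 and above) from the others (14.7 and below) in both lines, whereas IFN-γ separates the lines.

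IFN-γ, the inducer of the 3 ligands, lay below the floor in every TC-1/IR tumour lysate and above it in every TC-1 lysate. It read 0.255 after RT+IL-7, 0.72 after RT, 0.001 after IL-7 and 0.00105 with buffer in TC-1/IR. The readings in TC-1 were 5.225, 5.54, 5.185 and 3.65 in the same order. The lines did not overlap, and both spots were placeholders in the TC-1/IR tumours given IL-7 alone or buffer. With the TC-1/IR values raised to the floor, IFN-γ was lower by a log2 difference of -0.96 (SE 0.21, 95% interval -1.45 to -0.47, limma adjusted p = 0.0145), a value that depends on where the floor is set. The TC-1/IR values then all equal the floor and carry no spread, so the SE, interval and p-value can understate the error. Of the 75 analytes, 40% were called lower for line and 1.33% higher, so a lower reading in TC-1/IR is common on this array. The call was lost without the TC-1 RT membrane (limma adjusted p = 0.0585), the TC-1 IL-7 membrane (adjusted p = 0.0506) or the TC-1/IR RT+IL-7 membrane (adjusted p = 0.0545). In lysates of whole tumours, fewer cells that make a protein and less protein per cell cannot be told apart.

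Between single membranes IFN-γ was called lower in TC-1/IR in 3 of 4 matched pairs. The folds were at least 2.10 after RT+IL-7, where 56.4% of measured analytes were called lower, and at least 2.225 after RT, where 36.7% were. After IL-7 the fold was at least 2.08, with 57% of analytes called lower. Higher calls made up 2.56% of analytes after RT+IL-7 and 6.45% after IL-7, with none of the 5 proteins among them. With buffer it was at least 1.47, short of the threshold, with 51.4% called lower. The share of all analytes called lower was thus large in each pair.

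Treatment moved the IFN-γ reading within TC-1 by less than the lines differed. RT against buffer gave a 1.52-fold higher reading (log2 0.60, SE 0.09), a call shared by 19.8% of measured analytes in that pair, while 3.49% were called lower. The ratio was 1.42 for IL-7 against buffer and 1.43 for RT+IL-7 against buffer, neither of them called. After RT+IL-7 the reading was 1.06-fold lower than after RT, within the spread of the spots. Over all membranes the RT difference was 0.15 (95% interval -0.33 to 0.64, limma adjusted p = 0.969) and the IL-7 difference 0.11 (95% interval -0.38 to 0.59, limma adjusted p = 0.974). In TC-1/IR no ratio between treatments can be given, since all 4 values lay below the floor.

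CXCL9, the ligand most closely tied to IFN-γ, was lower in TC-1/IR tumours and was above the floor there on 1 of 4 membranes. It read 3.805 after RT+IL-7, 1.845 after RT, 2.46 after IL-7 and 1.24 with buffer in TC-1/IR. In TC-1 the readings were 6.595, 7.685, 7.33 and 2.79 in that order. The lines overlapped through 1 membrane each, since TC-1/IR after RT+IL-7 read above TC-1 with buffer. The line difference was -1.04 (SE 0.30, 95% interval -1.73 to -0.34, limma adjusted p = 0.0296), with 3 of the TC-1/IR values set to the floor. Of the 75 analytes, 40% were called lower for line. The CXCL9 line difference was no longer called after median centring of the membranes (-0.63, limma adjusted p = 0.0892). The call was also lost on leaving out any 1 of 5 membranes, namely RT, IL-7 or RT+IL-7 of TC-1 and IL-7 or RT+IL-7 of TC-1/IR, where the limma adjusted p ran from 0.0562 to 0.103 and the difference from -1.16 to -0.83.

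By single membranes CXCL9 was lower in TC-1/IR in the 3 treated pairs. The folds were 1.73 after RT+IL-7, at least 3.09 after RT and at least 2.94 after IL-7. Of all measured analytes 56.4%, 36.7% and 57% were called lower in these pairs, in that order. With buffer the fold was at least 1.12, which did not pass. The membranes themselves differed in overall signal, and centring brought CXCL9 after RT+IL-7 to 6.80 in TC-1/IR against 6.95 in TC-1, a log2 ratio of -0.03.

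Each treatment went with a higher CXCL9 reading than buffer in TC-1, and on the deposited scale the combination did not read above either agent alone. The reading was 2.36-fold higher after RT+IL-7 (log2 1.24, SE 0.23), 2.75-fold higher after RT (log2 1.46, SE 0.26) and 2.63-fold higher after IL-7 (log2 1.39, SE 0.22) than with buffer. All 3 were called, as were 16.9% of measured analytes for RT+IL-7, 19.8% for RT and 31.9% for IL-7 in the same direction. RT+IL-7 read 1.17-fold below RT and 1.11-fold below IL-7, and neither difference was called. After centring RT+IL-7 in TC-1 instead read above RT (log2 0.10) and above IL-7 (log2 0.36), again without a call. In TC-1/IR the deposited order was different: RT+IL-7 was the 1 membrane above the floor, at least 1.53-fold above each of RT, IL-7 and buffer. That was a call in each pair, with 4.55% of analytes called higher against RT, 7.41% against IL-7 and 15.9% against buffer. After centring CXCL9 was still called in these pairs, but more analytes were called higher with it, at 22 of 66 against RT, 14 of 65 against IL-7 and 13 of 61 against buffer. Over all membranes CXCL9 passed no treatment test, with an RT difference of 0.48 (95% interval -0.22 to 1.18, limma adjusted p = 0.969) and an IL-7 difference of 0.45 (95% interval -0.25 to 1.14, limma adjusted p = 0.974). The RT by IL-7 term was -0.50 (95% interval -1.87 to 0.87, limma adjusted p = 0.632) as deposited and 0.21 after centring.

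CXCL10, the ligand that interferons of other types can also induce, was the strongest reading of the 5 proteins on every membrane and followed irradiation in place of the line. After RT+IL-7 it read 34.0 in TC-1/IR and 40.45 in TC-1, and after RT 27.4 and 21.7 in that order. Without irradiation it read 13.1 in TC-1/IR and 14.7 in TC-1 after IL-7, and 12.005 and 9.915 with buffer. The 4 irradiated membranes lay above the 4 others with no overlap. The mean was 30.9 ± 8.13 with RT and 12.4 ± 2.03 without (SD, n = 4 membranes each), and the RT difference was 1.29 (SE 0.21, 95% interval 0.80 to 1.78, limma adjusted p = 0.0280). Of the 75 analytes 1.33% were called higher for RT and 0% lower, so CXCL10 was the 1 call. It was called in 0 of the 8 fits that each left out 1 membrane, whichever one it was, with limma adjusted p from 0.0557 to 0.214 and differences from 1.18 to 1.39. It was not called either with a floor of 0.5% (limma adjusted p = 0.09), with an intensity trend (adjusted p = 0.273) or on log2(value + 1) without a floor (adjusted p = 0.125).

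Matched pairs gave similar RT ratios for CXCL10 in the 2 lines. RT+IL-7 against IL-7 gave 2.59-fold in TC-1/IR (log2 1.37, SE 0.11) and 2.745-fold in TC-1 (log2 1.46, SE 0.04). RT against buffer gave 2.29-fold in TC-1/IR (log2 1.19, SE 0.12) and 2.185-fold in TC-1 (log2 1.13, SE 0.07). All 4 were calls. The median log2 ratio of all measured analytes in these pairs was -0.65, -0.36, 0.48 and 0.20 in the same order, and CXCL10 was higher in each. Against IL-7 alone, 7.41% of analytes were called higher in TC-1/IR and 2.2% in TC-1, and against buffer 46.3% and 19.8%, with 2.99% called lower against buffer in TC-1/IR. After centring the 4 log2 ratios were 2.24, 1.97, 0.35 and 1.18, and RT against buffer in TC-1/IR was no longer called. In the pairs still called, 14 of 65, 5 of 86 and 15 of 78 analytes were called higher, in that order. Lower calls there were 14, 3 and 1. The term for line by RT was -0.01 (95% interval -1.42 to 1.40, limma adjusted p = 0.999), an interval too wide to show that the lines respond alike.

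Across lines CXCL10 differed little, in contrast with IFN-γ and CXCL9. The line difference was 0.05 (95% interval -0.44 to 0.54, limma adjusted p = 0.872), and none of the 4 pairs passed 1.27-fold. After centring CXCL10 was higher in TC-1/IR in 4 of 4 pairs, by log2 ratios of 0.21 to 1.04. The buffer pair (1.04) was then called, where 13 of 69 analytes were called higher and 22 lower. The centred line difference was 0.50 (limma adjusted p = 0.208). Whether the line differences of the ligands differ from one another was not tested.

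CXCL10 was also higher with IL-7 in 4 of 4 pairs without passing the test (difference 0.48, 95% interval -0.01 to 0.97, unadjusted p = 0.0556, limma adjusted p = 0.974), and limma called 0% of the 75 analytes in either direction for IL-7. In the 1 pair that was called, RT+IL-7 exceeded RT in TC-1 by 1.87-fold (log2 0.90, SE 0.02), where 4.49% of analytes were called higher and 10.1% lower. The same pair in TC-1/IR gave 1.24-fold, and IL-7 against buffer gave 1.09-fold in TC-1/IR and 1.49-fold in TC-1, none of them called. After centring, RT+IL-7 against RT in TC-1/IR was a log2 of 1.52 and was called, where 22 of 66 analytes were called higher and 12 lower. IL-7 against buffer in TC-1/IR turned to -0.37. RT+IL-7 stood 2.83-fold above buffer in TC-1/IR (log2 1.502, SE 0.10) and 4.08-fold in TC-1 (log2 2.03, SE 0.07). The highest reading of each line was thus after the combination. The RT by IL-7 term was 0.25 (95% interval -0.73 to 1.24, limma adjusted p = 0.668) on the deposited scale. After centring it was 1.34 (95% interval 0.22 to 2.45, limma adjusted p = 0.660).

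CXCL11 gave weak readings throughout. It read 0.74 after RT+IL-7, 3.315 after RT, 0.0755 after IL-7 and 0.385 with buffer in TC-1/IR. The readings were 3.24, 3.745, 3.59 and 3.07 in TC-1. The 4 TC-1 readings lay close together just above the floor, and TC-1/IR after RT lay within their range while the other 3 TC-1/IR membranes lay below the floor. The line difference was -0.35 (95% interval -0.82 to 0.13, limma adjusted p = 0.203). It depended on the floor, being called at 0.5% of the strongest analyte (-1.10, limma adjusted p = 0.038) and on log2(value + 1) (-1.27, limma adjusted p = 0.019). No matched pair was called for CXCL11, and the RT and IL-7 differences were 0.14 and -0.10 (limma adjusted p = 0.969 and 0.974). Whether the antibody reads CXCL11 in this strain was not tested.

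**Figure D2:**
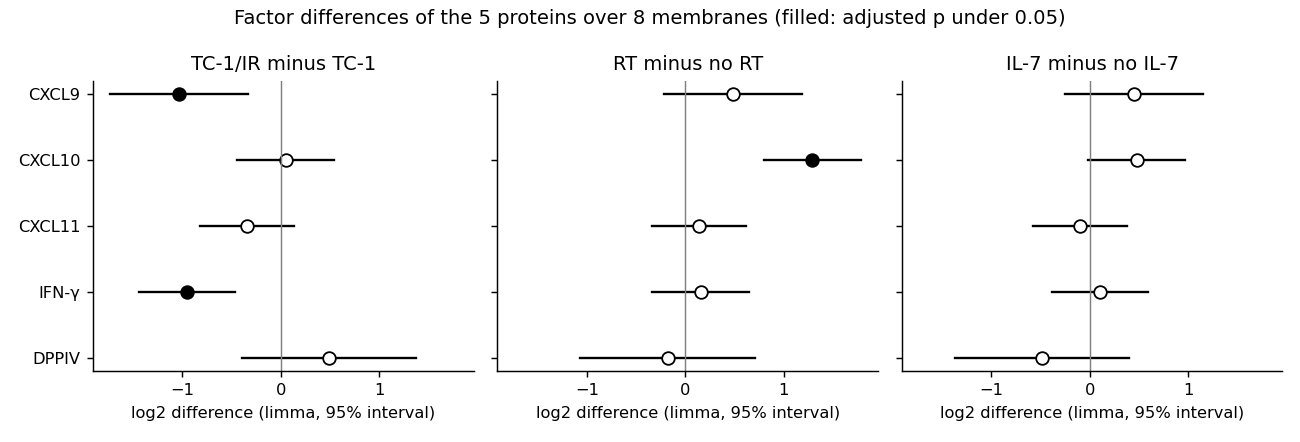
Log2 differences (limma, horizontal axes) of the 5 proteins for TC-1/IR minus TC-1, RT minus no RT and IL-7 minus no IL-7, with 95% intervals as lines and filled points for an adjusted p under 0.05. CXCL9 (-1.04) and IFN-γ (-0.96) are filled for line and CXCL10 (1.29) for RT, and no point is filled for IL-7.

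As deposited, DPPIV showed the reverse pattern between the lines with and without the cytokine. It read 2.145 after RT+IL-7, 6.23 after RT, 1.88 after IL-7 and 6.54 with buffer in TC-1/IR. In TC-1 the readings were 2.585, 2.15, 4.065 and 1.29. In TC-1/IR both membranes from mice given the drug lay below the floor and both others well above it. In TC-1 the IL-7 membrane was highest and both membranes without the drug lay below the floor. Several spots were far apart, at 4.54 and 7.92 for TC-1/IR after RT and at 3.20 and 1.09 after RT+IL-7.

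With IL-7 DPPIV was at least 2.63-fold lower than with buffer in TC-1/IR, where 5.66% of measured analytes were called lower and 49.1% higher. RT+IL-7 against buffer gave the same bound, with 18.2% of analytes called lower. It was at least 2.502-fold lower after RT+IL-7 than after RT, where 47% were called lower. After centring RT+IL-7 against RT gave a log2 ratio of -0.33 and was not called, and of 66 analytes 22 were then called higher and 12 lower. IL-7 against buffer gave -1.86 and RT+IL-7 against buffer -1.24 after centring, both called. In these pairs 10 of 59 and 5 of 61 analytes were called lower, and 19 and 13 higher. In TC-1, IL-7 against buffer gave DPPIV a fold of at least 1.63 upward, in a pair where 31.9% of analytes were called higher and 1.1% lower, and DPPIV was at least 1.04-fold higher after RT+IL-7 than after RT, which was not called. After centring the TC-1 ratio for IL-7 against buffer was a log2 of 0.27 and was not called either. The term for line by IL-7 was -1.74 (SE 0.62, 95% interval -3.18 to -0.29) with an unadjusted p of 0.0247 and a limma adjusted p of 0.982. DPPIV was the 1 analyte of 75 with an unadjusted p under 0.05 for that term, and 0% of analytes were called for it. After centring 4 of 72 analytes had an unadjusted p under 0.05 for the term, and DPPIV was not among them. Its term was then -1.29 (95% interval -3.04 to 0.45, limma unadjusted p = 0.107).

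Compared between the lines, DPPIV in TC-1/IR exceeded TC-1 by at least 2.63-fold with buffer, where 4.17% of analytes were called higher, and by at least 2.502-fold after RT, where 13.3% were. After IL-7 it was at least 1.63-fold lower in TC-1/IR, where 57% of analytes were called lower. After RT+IL-7 the fold was at least 1.04 and was not called. The line difference over all membranes was 0.49 (95% interval -0.40 to 1.37, limma adjusted p = 0.335), an average over pairs of opposite sign as deposited. After centring DPPIV was higher in TC-1/IR in 3 of 4 pairs. The log2 ratios were 1.86 with buffer, 0.95 after RT, 0.49 after RT+IL-7 and -0.27 after IL-7. The buffer and RT pairs were called, where 13 of 69 and 10 of 81 analytes were called higher. The centred line difference was 0.76 (95% interval 0.04 to 1.48, limma adjusted p = 0.0892). On the deposited scale irradiation gave 1 call, RT+IL-7 against IL-7 in TC-1, at 1.57-fold lower, with 22% of analytes called lower there. The RT difference was -0.18 (95% interval -1.07 to 0.70, limma adjusted p = 0.969) and the IL-7 difference -0.49 (95% interval -1.37 to 0.40, limma adjusted p = 0.974).

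**Figure D3:**
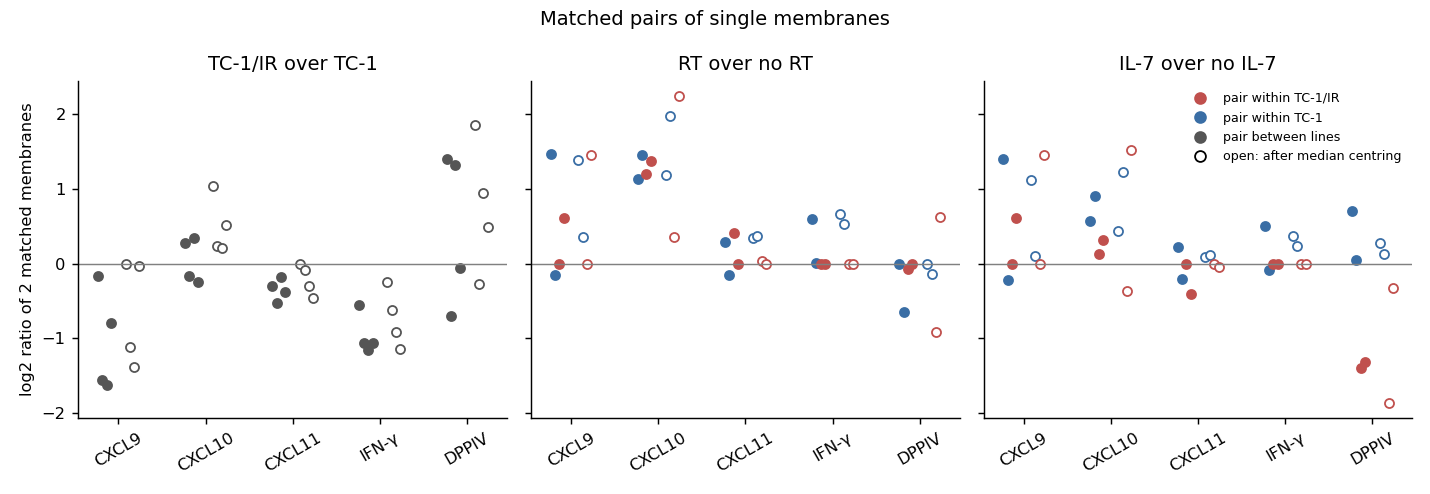
Log2 ratios of matched single membranes (vertical axis) for the 5 proteins, for TC-1/IR over TC-1, RT over no RT and IL-7 over no IL-7, with filled points as deposited, open points after median centring and colours for the line of the pair. The 4 RT ratios of CXCL10 lie between 1.13 and 1.46 as deposited and between 0.35 and 2.24 after centring, and the IL-7 ratios of DPPIV lie below 0 in TC-1/IR and above 0 in TC-1.

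The array carried 4 cytokines that induce IFN-γ in T and NK cells, of which IL-12, IL-15 and IL-27 p28 were tested and 2 were called lower for line, beside 40% of all 75 analytes. IL-27 p28 (Il27), made by antigen-presenting cells, read 0.49, 0.875, 0.735 and 0.33 in TC-1/IR after RT+IL-7, RT, IL-7 and buffer, against 5.495, 5.015, 5.99 and 4.145 in TC-1. As with IFN-γ, every TC-1/IR value was below the floor, so IL-27 p28 passed the filter through its TC-1 membranes alone. Its SE and p-value carry the same limit, and its difference depends on where the floor is set. The difference was -1.04 (SE 0.20, limma adjusted p = 0.0100). IL-15 (Il15), which sustains NK cells and memory CD8 T cells, differed by -0.77 (SE 0.26, limma adjusted p = 0.0486), and IL-12 (Il12b) by -0.63 without passing (SE 0.22, limma adjusted p = 0.0527). IL-2 was below the floor on all 8 membranes. The median line difference of the 3 tested was -0.77, beside -0.58 over all 75 analytes, and limma called none of the 3 for RT or IL-7.

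Of 4 readings of T and NK cell chemokines that act through other receptors, 2 were tested. CX3CL1 (Cx3cl1), the ligand of CX3CR1, was lower in TC-1/IR by -1.77 (SE 0.47, limma adjusted p = 0.0205), and CXCL16 (Cxcl16), the ligand of CXCR6, differed by -0.71 without passing (SE 0.32, limma adjusted p = 0.105). CCL5 (Ccl5) passed the floor on 2 membranes, both irradiated without the drug, at 5.465 in TC-1/IR and 5.62 in TC-1. The combined CCL3/CCL4 reading passed it on 3 membranes and was highest in TC-1/IR after RT, at 6.27. Limma called neither of the 2 tested for RT or IL-7. Single membranes did differ, as CX3CL1 read 8.59 after RT and 1.285 with buffer in TC-1/IR, and 7.6 after RT and 11.66 with buffer in TC-1. For RT against buffer 46.3% of measured analytes were called higher in TC-1/IR, where summed signal was 1473 and 765. In TC-1 19.8% were called higher and 3.49% lower.

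Other chemokines that DPPIV trims, known from the human proteins, were CCL5, CCL11 (Ccl11) and CCL22 (Ccl22). CCL22, which attracts regulatory T cells, was lower in TC-1/IR by -1.95 (SE 0.30, limma adjusted p = 0.0047), beside 40% of all 75 analytes. CCL22 lay below the floor in TC-1/IR except after RT, so its difference and SE depend on where the floor is set. CCL11, an attractant of eosinophils, differed by -0.68 without passing (SE 0.30, limma adjusted p = 0.103). Of 4 further proteins that IFN-γ can induce, CD40 was tested, with a line difference of -1.002 that did not pass (SE 0.44, limma adjusted p = 0.103). ICAM-1, VCAM-1 and BAFF were above the floor on too few membranes. Limma called none of the 3 tested members of these lists for RT or IL-7. On single TC-1/IR membranes CD40 read 9.61 after RT and 0.68 with buffer, and CCL22 read 6.12 after RT and 2.11 with buffer. In that pair 46.3% of measured analytes were called higher, and summed signal was 1473 after RT and 765 with buffer.

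**Figure D4:**
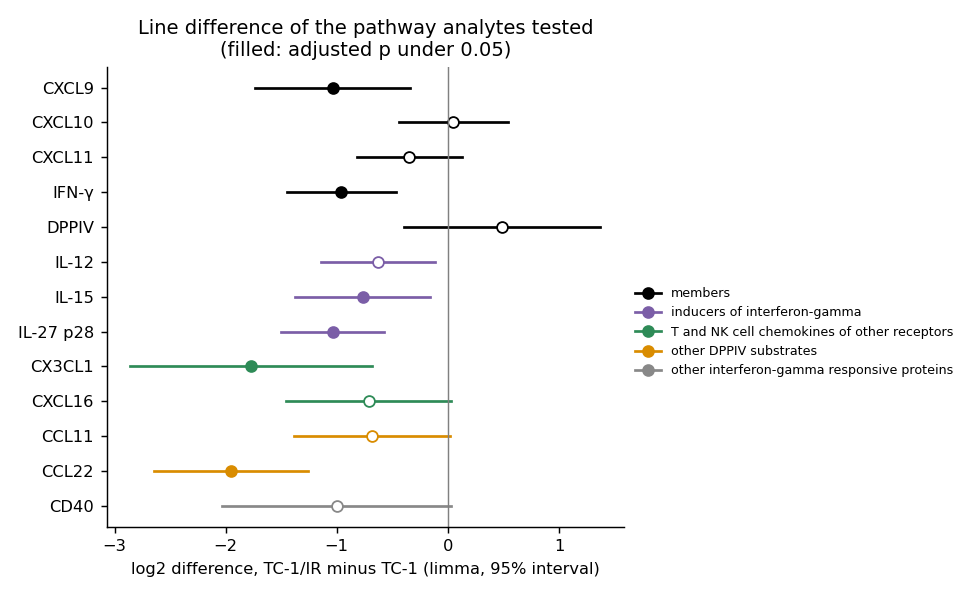
Log2 line difference (TC-1/IR minus TC-1, limma, horizontal axis, 95% intervals as lines) of the 5 proteins in black and of 8 other pathway analytes coloured by list, filled where the adjusted p was under 0.05. IL-15, IL-27 p28, CX3CL1 and CCL22 are filled below 0, and CXCL10 and DPPIV are the 2 points above 0.

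Likeness of pattern was described by Pearson's r of floored log2 values over the 8 membranes, which share the 2 lines and the overall signal of each membrane. CCL6 (r = 0.958), IL-5 (r = 0.929) and CCL12 (r = 0.915) were most like CXCL9. For CXCL10 the highest values were low, at 0.542 for CCL19, 0.402 for CCL12 and 0.392 for CXCL9 itself, and after centring they were 0.892 for adiponectin, 0.786 for CCL6 and 0.759 for cystatin C. IFN-γ was most like G-CSF (r = 0.999), GDF-15 (r = 0.992) and IL-27 p28 (r = 0.981), each of them below the floor in all TC-1/IR lysates. Pentraxin 3 (r = 0.942), CD40 (r = 0.936) and CCL17 (r = 0.902) were most like CXCL11. DPPIV was most like tissue factor (r = 0.751), CCL3/CCL4 (r = 0.597) and CCL2 (r = 0.580). Among the members r was 0.904 for CXCL9 with IFN-γ and 0.143 for CXCL10 with IFN-γ. After centring the first fell to 0.695, and the second was 0.131. After centring the nearest patterns were CCL12 (0.966), CCL17 (0.878) and GDF-15 (0.875) for CXCL9, CD160 (0.977), IGFBP-5 (0.942) and IFN-γ (0.939) for CXCL11, IL-1β (0.978), IL-27 p28 (0.972) and G-CSF (0.962) for IFN-γ, and IGFBP-6 (0.742), tissue factor (0.715) and IL-10 (0.599) for DPPIV.

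The marker lists hold few proteins, and none that defines T cells or the tumour cells. CD160, a receptor of NK and CD8 T cells, did not reach the floor in any of 4 TC-1/IR lysates, at 0.0505 to 0.85, against 2.135 to 3.755 in TC-1, where 3 of 4 were above the floor. In the matched line pairs 36.7% to 57% of all measured analytes were called lower in TC-1/IR, so a lower reading there is common. CD160 lay near the floor in TC-1 and was above it on too few membranes to be fitted. Its part in the IFN-γ and CXCL9 differences was not tested. The 2 markers of monocytes and macrophages, CD14 and chitinase 3-like 1, summed to 40.2 to 167 with RT and 52.5 to 187 without. The 3 neutrophil markers summed to 4.26 to 11.1 with RT and 10.3 to 109 without, and of these lipocalin-2 and MMP-9 were mostly below the floor. Their part in the RT difference of CXCL10 was not tested. Endothelial markers (E-selectin, endoglin and CD93) summed to 2.73 to 4.68 in TC-1/IR and 3.86 to 5.595 in TC-1, near the floor throughout. For DPPIV, which is also a plasma protein, the 4 liver-made plasma proteins summed to 215 after RT+IL-7, 318 after RT, 378 after IL-7 and 212 with buffer in TC-1/IR. In TC-1 the sums were 159, 209, 218 and 229. One of the 4, RBP4, read 3.005, 4.085, 6.87 and 5.865 in TC-1 in that order, with its highest reading on the IL-7 membrane as for DPPIV. Fetuin A and pentraxin 2 were highest with buffer in TC-1, at 106.9 and 115.6, and CRP lay below the floor throughout. In TC-1/IR RBP4 read 1.185 with buffer and 4.065 after IL-7, where DPPIV read 6.54 and 1.88. The part of plasma in the DPPIV values was not tested.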

How the data were processed

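Lysates of subcutaneous tumours were measured on membranes of the Proteome Profiler Mouse XL Cytokine Array, per the labels' protocols, with 1 membrane in each of 8 groups. The authors deposited 1 spot intensity for each of 222 spots a membrane, on a linear scale. How the images were analysed, and whether background was removed or membranes scaled, is not stated in the labels or files. The separately deposited table of the whole series differed from these files at 0 spots. Symbols came from Entrez IDs, all 111 of which matched RefSeq.

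Each analyte was taken as the mean of its 2 spots, values below the floor (1% of the highest analyte, 249) were raised to it, and log2 values were fitted with limma 3.58.1 in R 4.3.3. The fit had terms for line, RT and IL-7 and 4 residual degrees of freedom. Fits with line by RT and line by IL-7 had 2, and the fit with RT by IL-7 had 3. With 1 membrane a group, the spread in these tests comes from departures from additivity, and p-values say nothing of the spread between animals. The number of membranes limits the precision. The fit was tested on simulated data with independent normal noise, without floored values or differences in overall signal between membranes. That test does not cover these limits of the deposited values. Single membranes were compared by the rule of size given in the report.

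The named proteins were the 5 members, lists by function and the 3 analytes most like each member by r. Members and lists were chosen with earlier results of these data known. Alternatives were median centring on 28 analytes that exceeded the floor on every membrane, floors of 0.5% and 2%, single spots, no filter, an intensity trend, treatment as a block, a 2-fold threshold and leaving out each membrane. Log2(value + 1) without a floor was chosen after seeing the data. Motifs were searched on both strands with Python 3.11.15.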

Additional observations from a re-analysis of the deposited data

Results flagged for a closer look

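DPPIV was picked out because its difference between mice given IL-7 and mice not given it ran in opposite directions in the lines. The difference in TC-1/IR minus that in TC-1 was -1.74 on the log2 scale (limma unadjusted p = 0.0247, limma adjusted p = 0.982), so it did not pass the test after adjustment. The flag and this term rest on the same values, so the unadjusted p is no separate support. Both TC-1/IR pairs were lower with IL-7, by at least 2.63-fold against buffer and at least 2.502-fold against RT. Both TC-1 pairs were higher, by at least 1.63-fold and at least 1.04-fold. The 1.04-fold pair was not called and lay within the spread of the spots (log2 0.05, SE 0.24). Under median centring the difference was -1.29 (limma unadjusted p = 0.107) and with a floor of 0.5% it was -2.63.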

How the results depend on the processing

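No paired analysis was possible because there was 1 membrane a group and no label links animals across groups, so the lines were matched by treatment alone. With treatment as a block the line count was 37, and CXCL9 (limma adjusted p = 0.0228) and IFN-γ (limma adjusted p = 0.0118) were called. The line count, 31 of 75 analytes, was 10 with a floor of 2% and 7 to 38 with 1 membrane left out. The RT count, 1 of 75, was 0 with a floor of 0.5%, with log2(value + 1), with an intensity trend and (0 to 0) with any membrane left out. IL-7 gave 0 calls by limma in the main setting (0 at an unadjusted p under 0.05) and in each alternative. The CXCL9 line difference was not called after centring (-0.63), with the first spot (-0.86) or without the filter (-1.04), and ran from -1.32 to -0.83 with 1 membrane left out. Other than leaving out a membrane, IFN-γ was fitted in 8 alternatives and its line difference was called in all of them, from -2.27 to -0.73. At a floor of 2% IFN-γ was not fitted. The difference ran from -1.10 to -0.87 with 1 membrane left out, and the call was lost in some of those fits. CXCL11 was called lower at a floor of 0.5% (-1.10) and with log2(value + 1) (-1.27). The CXCL10 RT difference was not called at a floor of 0.5% (1.29), with log2(value + 1) (1.22) or with an intensity trend (1.29), and ran from 1.18 to 1.39 with 1 membrane left out. The cause of these changes was not tested.

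Differences that did not pass changed sign as follows. The CXCL10 line difference was -0.0324 with the second spot and -0.0545 to 0.16 with 1 membrane left out. The DPPIV RT difference was 0.051 at a floor of 0.5%, 0.00696 with log2(value + 1) and -0.44 to 0.15 with 1 left out. The IFN-γ IL-7 difference was -0.0286 with log2(value + 1) and -0.0331 to 0.19 with 1 left out. After centring, the CXCL11 IL-7 difference was 0.04, line by RT was -0.33 for CXCL11 and -0.0734 for DPPIV, line by IL-7 was 0.11 for CXCL9, and RT by IL-7 was 0.21 for CXCL9 and 0.69 for DPPIV. Line by IL-7 for CXCL9 was 0.43 at a floor of 0.5%.

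Among 20 matched comparisons of the 5 proteins for each factor, line gave 2 higher and 7 lower calls, RT 7 and 1, and IL-7 4 and 2. In the 4 line pairs 36.7% to 57% of all measured analytes were called lower and 2.56% to 13.3% higher. In the RT pairs 2.2% to 46.3% were called higher and 2.99% to 57.4% lower. For IL-7 the shares were 4.49% to 49.1% higher and 1.1% to 47% lower. CXCL10 gave 4 of the 7 higher calls for RT. For RT and IL-7 the 20 include pairs with both membranes below the floor, in which no call was possible. With a floor of 2%, line gave 0 higher and 1 lower, RT 0 lower, and IL-7 1 higher and 0 lower. A floor of 0.5% gave 12 lower calls for line. A 2-fold threshold gave 0 lower calls for RT and 1 higher for IL-7, and centring gave 1 lower call for IL-7. At the 2% floor most of the 5 proteins were above the floor on too few membranes to be fitted. Readings near the floor limit CXCL9, CXCL11, IFN-γ and DPPIV to bounds in several groups.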
